A study of Mus musculus with 4 samples.

Results

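The HGF/MET axis was described in mouse kidney ureteric buds through 8 genes, which were chosen by name: the ligand gene Hgf, the activating proteases Hgfac and St14, the protease inhibitors Spint1 and Spint2, the receptors Met and Mst1r, and the docking protein Gab1. Array probes were assigned to these genes through the RefSeq accessions printed beside the probes. Of the 8 genes, 7 had at least 1 probe, with 12 probes in all, among 17305 gene symbols with a probe. No probe was matched to Spint2. After the filter on dim probes 5 of the 8 genes were tested, Met, Hgfac, Spint1, St14 and Gab1, among 15006 features.

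Ureteric buds are the branching epithelium from which the ureter and collecting ducts arise. Intact buds spent 6 h with the peptide hormone angiotensin II (AngII) at 1e-05 M or in media without it, which asks what transcripts differ in the presence of AngII. In both arms the buds lay in matrix gel on inserts in DMEM/F12 that held 10% FBS, HGF at 100 ng/ml and GDNF at 100 ng/ml, so the ligand of MET was supplied to the AngII and the media buds alike. AngII RNA and media RNA of each of 2 numbered replicates were hybridised together to 2 two-colour arrays, 1 carrying AngII as Cy5 beside media as Cy3 and 1 with the dyes swapped, giving 4 arrays on 1 slide. The labels give no strain, age or number of buds.

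HGF is secreted as an inactive single chain, and serine proteases, among them HGF activator (Hgfac) and the membrane-bound matriptase (St14), cleave it into the form that activates MET. The Kunitz-type inhibitors HAI-1 (Spint1) and HAI-2 (Spint2) sit on epithelial surfaces and block these proteases, and active MET signals through docking proteins such as GAB1. In the developing kidney HGF is made mainly by mesenchyme and MET lies on the ureteric epithelium, where HGF takes part in branching.

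The ratios of the replicates did not differ beyond the noise between hybridisations: the SD across features of their half-difference was 0.038 on the log2 scale, against 0.037 for the contrast that holds array noise alone. In limma the number of features that differed between replicate 1 and replicate 2 was 0 after adjustment at 0.05 and 768 with unadjusted p-values below 0.05. The labels call the replicates biological. On these values alone, and against that label, they were counted as 1 pair of RNA samples. The p-values and intervals of the averaged ratios below are therefore read as the spread between hybridisations once the dye orientations were averaged. Whether the numbers stand for separate cultures that happened to be very alike cannot be told from the arrays. The difference between dye orientations does not enter these p-values and intervals. The SD across features of its half-difference was 0.164. Of 15006 features 77.2% passed an adjusted p under 0.05 in limma, 39.1% higher and 38.1% lower under AngII, so passing the test does not set a gene apart from the other features. In these bulk samples fewer cells of a type and less RNA per cell cannot be told apart.

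Among the 5 tested genes 2 were higher under AngII (Hgfac and St14), 1 was lower (Spint1), and Met and Gab1 did not pass. That is 60% of them, against 77.2% of all features. In limma with the replicate block Spint1 alone of the 5 passed (adjusted p = 0.00604), and 30.9% of all features passed (4641). The median log2 ratio of the 5 genes was 0.06 and the median of their absolute log2 ratios 0.15, against medians of 0.00 and 0.19 over all features. Spint1 was the only 1 of the 5 whose probes gave the same sign on all 4 arrays. The share of all features that did so is not given here. Plau and Prss8 did so too, but they are named below for having the smallest p in their role. They therefore cannot stand for all features, and whether the shared sign sets Spint1 apart was not tested. Hgfac and St14 passed on the arrays with AngII in Cy3 alone (adjusted p = 3.47e-05 and 9.33e-05) and did not pass on those with AngII in Cy5 alone (adjusted p = 0.839 and 0.289), and St14 was higher at 1 probe and lower at the other.

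The upstream sequences of the gene that fell and of the gene with the highest ratio are given for the 2 genes with the largest mean ratios among the 5 tested. The place of Hgfac rests on the arrays with AngII in Cy3, since its ratio with AngII in Cy5 alone was -0.01. They are the 250 bases before the annotated start, read 5′ to 3′ on the plus strand from RefSeq on GRCm38.p6, at chr2:119237110-119237359 for Spint1 and chr5:35041259-35041508 for Hgfac. Capitals mark matches on either strand to GTTAAT, the half-site of HNF1 factors, and to GGGCGG, the GC box of Sp and KLF factors. These motifs were chosen with the sequences in view.
Spint1: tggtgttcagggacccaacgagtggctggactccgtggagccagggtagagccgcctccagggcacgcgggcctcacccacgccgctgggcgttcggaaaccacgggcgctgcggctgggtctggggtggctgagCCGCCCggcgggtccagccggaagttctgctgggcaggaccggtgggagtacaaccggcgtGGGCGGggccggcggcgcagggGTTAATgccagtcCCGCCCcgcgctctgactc
Hgfac: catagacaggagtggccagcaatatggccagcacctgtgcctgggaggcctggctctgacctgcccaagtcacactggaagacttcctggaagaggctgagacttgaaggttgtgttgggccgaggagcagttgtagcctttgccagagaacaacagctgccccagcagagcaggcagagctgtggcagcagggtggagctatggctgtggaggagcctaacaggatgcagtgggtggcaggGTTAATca
Both windows hold 1 GTTAAT match, which begins 32 bases before the start in Spint1 and 8 bases before it in Hgfac. Spint1 holds 3 matches to the GC box and Hgfac none. Of 32851 upstream windows of the same length 6.43% hold GTTAAT and 32.7% hold the GC box. The arrays do not measure binding at these letters.

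Spint1 encodes HAI-1, the inhibitor that holds matriptase and HGF activator in check, and its transcript was lower under AngII. At the brighter of its probes (A_51_P341108) the AngII channel read 11.67, 11.23, 11.59 and 11.56 log2 intensity units, against 12.23, 11.78, 12.17 and 12.14 in the media channel of the same arrays. The AngII and media levels did not overlap, and each array showed nearly the same gap. The log2 ratios of AngII over media were -0.56 and -0.55 with AngII in Cy5 and -0.58 and -0.59 with AngII in Cy3. Their mean was -0.57 (SE 0.034, 95% interval -0.64 to -0.50), a level 1.48-fold lower, with an adjusted p of 6.17e-15 in limma over all features. By size of the ratio Spint1 ranked at 1740 of 15006 features.

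The other Spint1 probe (A_52_P509886) gave a larger fall, with AngII levels of 10.60, 10.11, 10.46 and 10.37 and media levels of 11.51, 10.98, 11.35 and 11.30. Again no AngII level reached a media level. Its log2 ratios were -0.91, -0.87, -0.89 and -0.93, with a mean of -0.90, which is 1.86-fold lower. The probes differed by 0.33 on the log2 scale, against a median spread of 0.18 over 3432 genes with several tested probes, and the size of the fall is therefore given as 1.48-fold to 1.86-fold. In the authors' deposited table the log2 ratios of these probes are -0.598 and -0.929.

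**Figure D1:**
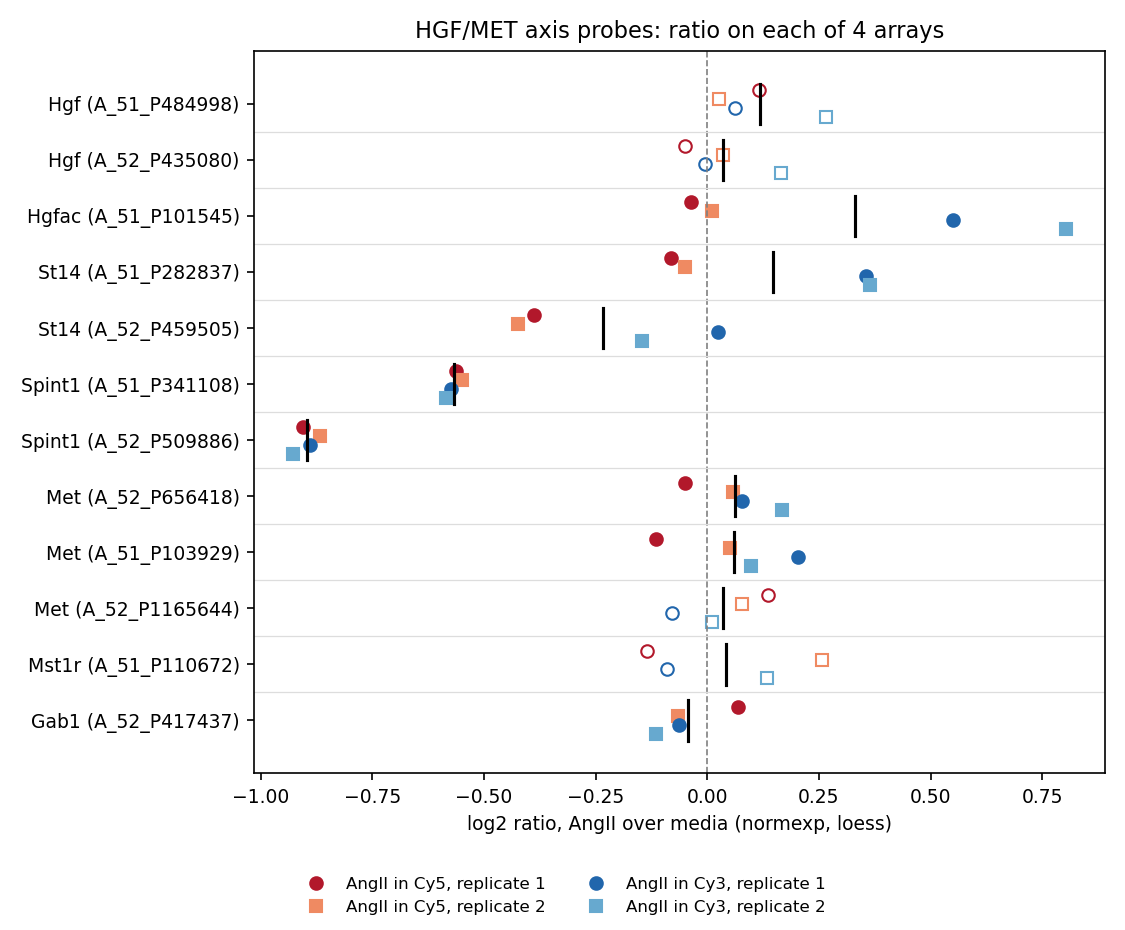
Log2 ratio of AngII over media (horizontal axis) for the 12 probes of the axis, with 1 point per array (red and orange for AngII in Cy5, blue for AngII in Cy3, circles for replicate 1, squares for replicate 2) and the mean of the 4 arrays as a black bar; open points mark probes that did not pass the filter. Both Spint1 probes lie below 0 on all 4 arrays, at means of -0.57 and -0.90, while the points of Hgfac and St14 separate by dye.

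St14 encodes matriptase, the epithelial membrane protease that HAI-1 inhibits and that cleaves HGF. Its brighter probe (A_51_P282837) read 12.82, 12.70, 13.04 and 12.94 log2 intensity units under AngII, against 12.90, 12.75, 12.69 and 12.57 in media. The levels overlapped: AngII lay below media on both arrays with AngII in Cy5 and above it on both with AngII in Cy3. The log2 ratios were -0.08 and -0.05 in the first orientation and 0.35 and 0.36 in the second. Their mean was 0.15 (SE 0.034, 95% interval 0.08 to 0.22, limma adjusted p = 0.000313). The other probe (A_52_P459505) had a mean of -0.23, with -0.39 and -0.42 for AngII in Cy5 and 0.02 and -0.15 for AngII in Cy3. In a limma fit over all probes that passed the filter, this probe passed as lower (95% interval -0.31 to -0.16, adjusted p = 1.83e-07).

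No direction was assigned to St14. Its probes differed by 0.38 on the log2 scale, against a median spread of 0.18 over the 3432 genes with several tested probes. The gap of 0.38 is below the 1.5-fold that 7.69% of those genes exceeded. Opposite signs between probes were seen in 27.8% of those genes. With the mean of both probes the ratio was -0.04 (adjusted p = 0.221), and with the replicate block on the 4 arrays, whose residual holds the difference between dye orientations, the adjusted p was 0.380. Without replicate 1 or without replicate 2 it was 0.574 or 0.634. The authors' deposited table gives 0.141 for the brighter probe and -0.272 for the dimmer one, so it too holds both signs.

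Hgfac encodes HGF activator, a plasma protease made mainly by the liver, and it was dim here. Its single probe (A_51_P101545) was well above background in both channels of all 4 arrays, at a mean log2 intensity of 6.73. AngII levels were 6.66, 6.68, 7.14 and 7.07, against 6.70, 6.67, 6.59 and 6.27 in media. The groups overlapped, and the gap was present on the arrays with AngII in Cy3, at log2 ratios of 0.55 and 0.80, while those with AngII in Cy5 gave -0.04 and 0.01. The mean was 0.33 (SE 0.037, 95% interval 0.26 to 0.41), or 1.26-fold higher, with a limma adjusted p of 3.76e-09. The authors' deposited table gives 0.412 for this probe.

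The call on Hgfac rests on the arrays with AngII in Cy3. With these alone the mean was 0.68, and with AngII in Cy5 alone it was -0.01. With the replicate block the adjusted p was 0.208, and without replicate 1 or without replicate 2 it was 0.0962 or 0.364. Agilent's processed signals gave a ratio of 0.85 (adjusted p = 0.0103), more than 1.5 times the value above.

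**Figure D2:**
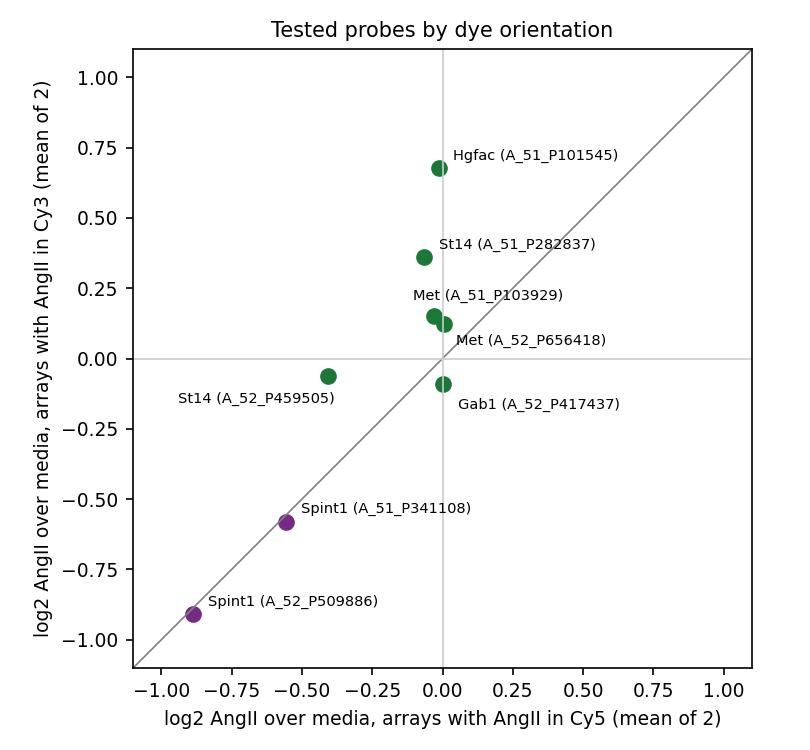
Mean log2 ratio of AngII over media on the 2 arrays with AngII in Cy5 (horizontal axis) against the 2 arrays with AngII in Cy3 (vertical axis) for the 8 tested probes; the grey diagonal marks equal ratios, purple points are probes whose AngII and media levels did not overlap, and green points the others. The Spint1 probes lie on the diagonal, at -0.56 and -0.58 and at -0.89 and -0.91, while Hgfac lies at -0.01 and 0.68.

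Met encodes the receptor tyrosine kinase that binds HGF. At its brightest probe (A_52_P656418) the AngII levels were 9.14, 9.27, 9.39 and 9.39, against 9.19, 9.21, 9.31 and 9.23 in media. The levels overlapped, and AngII was the higher channel on 3 of 4 arrays. The log2 ratios were -0.05, 0.06, 0.08 and 0.17, with a mean of 0.06 (SE 0.035), which did not pass (limma adjusted p = 0.107). The 95% interval was -0.01 to 0.14. A dimmer Met probe (A_51_P103929) gave -0.11, 0.05, 0.20 and 0.10, with a mean of 0.06 that likewise did not pass. The remaining Met probe (A_52_P1165644) was not well above background in either channel of any array. With median centring Met reached an adjusted p of 0.0366 at a ratio of 0.10, and with AngII in Cy3 alone 0.0317 at 0.12.

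Gab1 encodes the docking protein that MET phosphorylates to recruit its effectors. AngII levels were 8.44, 8.45, 8.45 and 8.44, against 8.37, 8.52, 8.51 and 8.56 in media. The AngII readings fell within the range of the media readings. The log2 ratios were 0.07, -0.06, -0.06 and -0.11, with a mean of -0.04 (SE 0.035, 95% interval -0.12 to 0.03, limma adjusted p = 0.259), which did not pass.

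**Figure D3:**
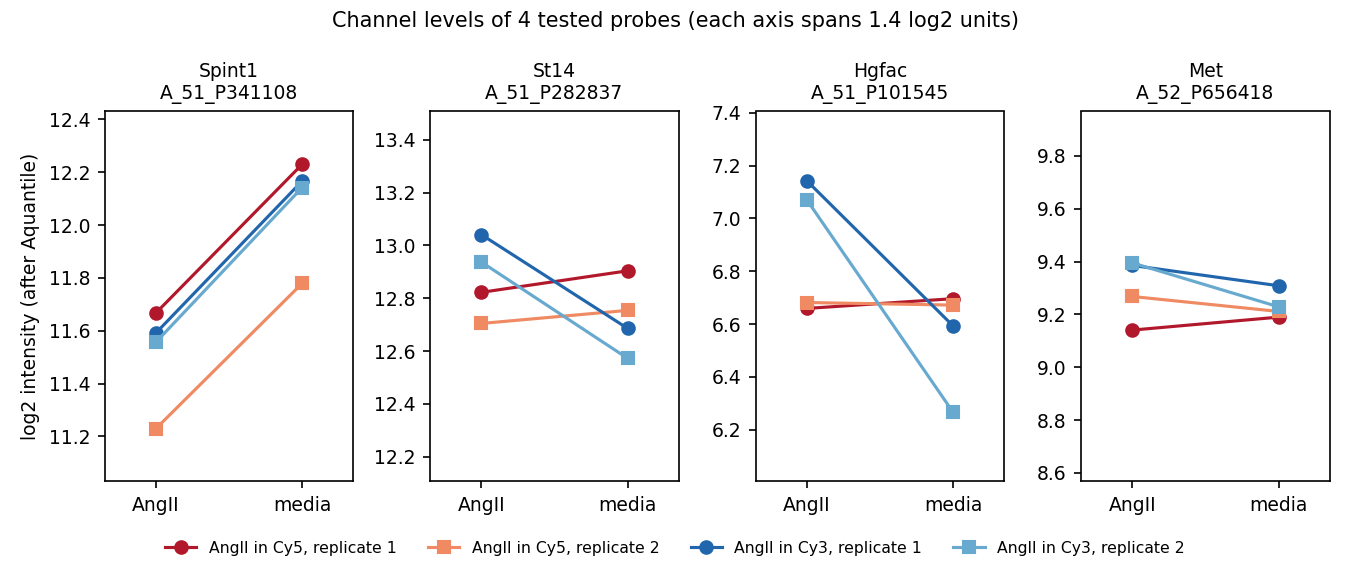
Log2 intensity of the AngII channel (left) and the media channel (right) for the brightest probe of Spint1, St14, Hgfac and Met, with 1 line per array; each vertical axis spans the same width, and levels are not comparable between genes. All 4 lines of Spint1 run upward from AngII to media by a like amount (log2 ratios of -0.59 to -0.55), whereas the lines of St14 cross.

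Hgf, the ligand gene, was near background and was not tested. Its brighter probe (A_51_P484998) was well above background on 3 of 4 arrays in the AngII channel and on 3 of 4 in the media channel. The AngII spots had median pixel intensities of 89.0 and 83.5 in Cy5 and 44.0 and 47.0 in Cy3, over local backgrounds of 62.0, 71.5, 20.5 and 18.0. The media spots of the same arrays had 28.0 and 26.0 in Cy3 and 100.0 and 104.0 in Cy5, over backgrounds of 19.0, 19.0, 60.5 and 65.0. The spot exceeded its local background in both channels of all 4 arrays. The log2 ratios were 0.12, 0.03, 0.06 and 0.27, all above 0, with a mean of 0.12. A fit with no filter on dim probes gave an adjusted p of 0.0103 for it, and the authors' deposited table gives 0.209 with an adjusted p of 0.00148. The other Hgf probe (A_52_P435080) was well above background on 1 array in the AngII channel and on 0 arrays in the media channel, and its ratios ran from -0.05 to 0.17.

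Mst1r encodes RON, the receptor for macrophage-stimulating protein and the closest relative of MET. Its probe (A_51_P110672) was well above background on 1 of 4 arrays in the AngII channel and on 3 of 4 in the media channel, and was not tested. The ratios were -0.14, 0.26, -0.09 and 0.13, with both signs in each dye orientation. Among 16535 probes within 0.25 log2 units of its brightness the SD of the log2 ratio was 0.072, against 0.457 among the 1249 probes near the brightest Met probe. A small ratio at dim probes such as those of Mst1r and Hgf therefore does not show a lack of change.

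Other genes of HGF/MET signalling were counted from a list ordered by role. Of 78 genes 61 were tested, of which 20 were higher and 31 lower under AngII and 10 did not pass. That is 83.6% passing, near the 77.2% of all features, with a median log2 ratio of -0.10, against 0.00. With the replicate block 49.2% of the 61 passed (30), against 30.9% of all features. With either replicate left out 37.7% passed (23), against 19.6% of all features without replicate 1 and 14.8% without replicate 2. With no filter on dim probes 66.2% of the tested pathway genes passed, against 36.6% of all features. With a gene's probes averaged the shares were 90.2% and 77.5%. The nearness of the shares therefore depends on the fit and on the filter. Among ligand and protease genes 3 of 7 tested were higher and 3 lower. Plau, the urokinase gene, fell by 0.99 (-1.45 to -0.58 over the 4 arrays), and Prss8, the membrane protease prostasin that acts with matriptase, fell by 0.73 (-0.82 to -0.64). Tmprss2, another membrane serine protease, rose by 0.85 (0.73 to 0.91), with the same mean at its other probe. Each kept 1 sign on all 4 arrays.

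Among serpin inhibitors Serpine2, a secreted inhibitor of serine proteases, rose by 0.43 (0.28 to 0.62), and Serpinf2, the plasmin inhibitor, had 0.04 and did not pass. Among 8 co-receptor and shedding genes 3 were higher and 5 lower. Epcam, an epithelial adhesion protein that matriptase cleaves, rose by 0.73 (0.59 to 0.87), and the integrin gene Itgb4 by 0.71 (0.68 to 0.79). Plxnb1, a semaphorin receptor that associates with MET, fell by 0.78 (-0.98 to -0.62) at its brightest probe, but another Plxnb1 probe gave -0.06.

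Of 23 tested adaptors and effectors 5 were higher and 12 lower, 6 did not pass, and the median log2 ratio was -0.14. Pak1, a kinase downstream of Rac, fell by 0.92 (-1.04 to -0.81), Hras by 0.88 (-1.29 to -0.50) and Map2k2, a kinase that activates ERK, by 0.67 (-0.76 to -0.54 over the arrays). Negative regulators had 3 higher and 5 lower of 9. Muc20, a mucin that binds MET and dampens its Ras signalling, rose by 2.08 (1.95 to 2.21). Sh3kbp1, which takes part in the uptake of activated MET, rose by 0.71 (0.58 to 0.84), and the vascular phosphatase gene Ptprb by 0.37 (0.25 to 0.49).

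Growth-factor response genes of epithelial cells split evenly, 5 higher and 5 lower of 11 tested. Timp1, a metalloprotease inhibitor, rose by 1.67 (1.52 to 1.81), with 0.94 at another probe. Plaur, the urokinase receptor, fell by 1.11 (-1.19 to -1.05) and the transcription factor gene Etv4 by 0.95 (-1.28 to -0.66). Urokinase (Plau) and its receptor (Plaur) were both lower, a grouping made after their values were seen. For 6 of the genes named from the list the mean ratio with AngII in Cy3 was more than 1.5 times that with AngII in Cy5. It was 2.32 times for Plau, 2.29 for Hras, 1.78 for Serpine2, 1.75 for Etv4, 1.65 for Ptprb and 1.51 for Plxnb1, each with 1 sign on all 4 arrays. The share of all features past 1.5 times was not counted. By another measure, a dye term in limma, the orientations differed at 55.4% of 19384 probes, so such gaps are not particular to these genes.

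**Figure D4:**
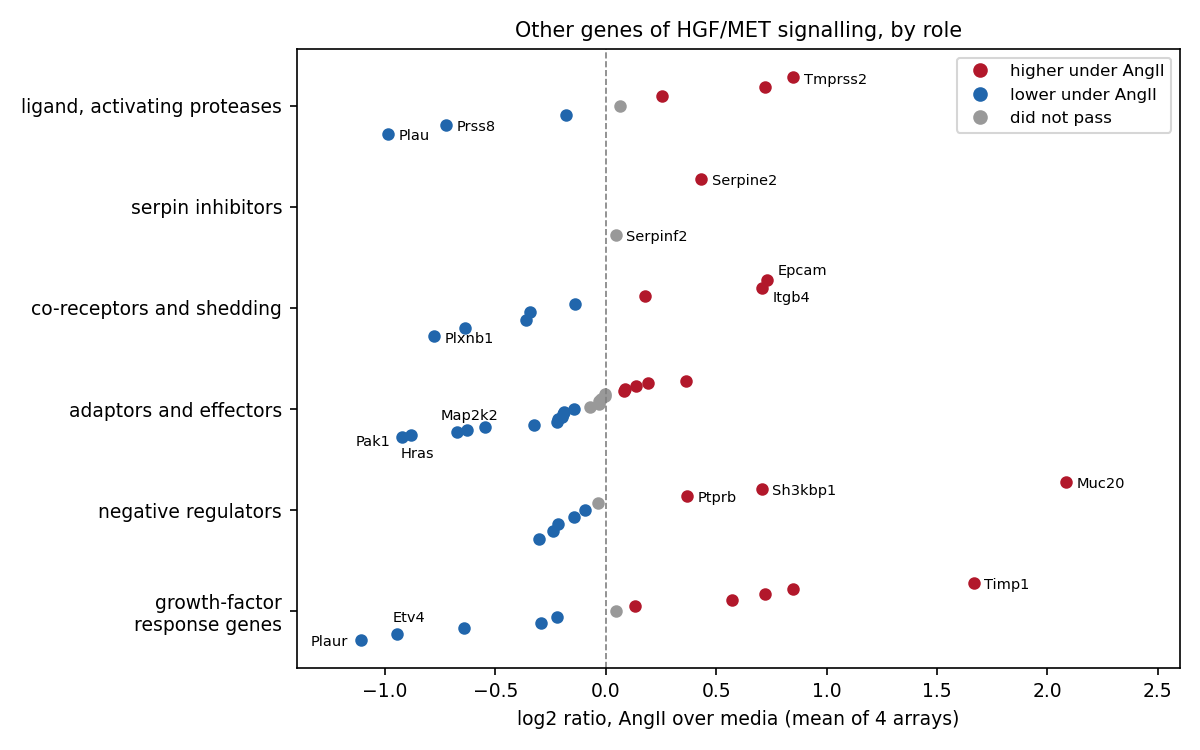
Log2 ratio of AngII over media (horizontal axis, mean of 4 arrays) for the tested genes of the pathway list that are reported here, in rows by role, with 1 point per gene (red higher, blue lower, grey did not pass); in each row up to 3 genes with the smallest p are named. Muc20 stands furthest to the right at 2.08, and Plaur furthest to the left at -1.11.

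The 3 genes whose 4 array ratios lay nearest to those of Spint1, among 11455 named features, were Sox11, Nln and Agpat2, with root mean square differences of 0.020, 0.029 and 0.032 on the log2 scale. Nearest to Hgfac were Cdkn2a, Mtif2 and Tbc1d2, at 0.080, 0.085 and 0.090. These likenesses rest on 4 arrays.

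Markers of the ureteric epithelium were present, with Krt18 and Krt8 at mean log2 intensities of 17.02 and 16.63 and Gata3 at 11.48. Cdh1, Pax2 and Tfap2b were near background at 6.49, 6.59 and 6.40, and Ret was not tested. Markers of other cell types were bright too, with the stromal marker Vim at 12.75 and the nephron progenitor marker Cited1 at 11.64. Of 13 tested ureteric markers 6 were higher, 6 lower and 1 did not pass, and their summed intensities were 244410.0 to 271882 under AngII, against 269152 to 341253 in media. The sums add unlogged intensities, so bright markers such as Krt18 and Krt8 weigh most. Krt18 had a ratio of -0.03 and no call. Krt8 gave log2 ratios of -0.04 and -0.35 with AngII in Cy5 and -0.95 and -1.01 with AngII in Cy3. Over the 13 ureteric markers the median ratio was -0.03. All 6 tested erythroid markers (of 7) were higher, with sums of 30149.9 to 36572 under AngII, against 5591 to 6619 in media. Of 11 stromal and mesenchymal markers 5 were higher and 1 lower, with sums of 39881 to 42812 under AngII, against 30171 to 32242 in media. Among these Acta2 had the largest ratio, 1.69, with AngII levels of 13.18 to 13.62 against 11.65 to 11.79 in media. The remaining 5 markers, Vim among them, had no call, and the median ratio of the 11 was 0.06. The ureteric and stromal sums therefore do not show a change shared by the markers of those lists. Nephron progenitor markers had 2 higher and 4 lower of 6, endothelial markers 1 higher and 3 lower of 5, and leukocyte markers 3 higher and 3 lower of 7. The sums were 5408 to 6440.5, 693 to 730.2 and 819 to 872 under AngII, against 5498 to 6225, 755 to 789 and 732 to 765 in media, in that order. The part of these cell types in the ratios of Spint1, Hgfac, St14 or Hgf was not tested.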

How the data were processed

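RNA of AngII and media ureteric buds was measured on 4 two-colour Agilent arrays, extracted per the file headers by Feature Extraction 10.5.1.1. The submitters' processing notes name limma, with no version. Each deposited array file gives the median intensity of every spot and of its local background, which were used here, and a processed intensity from which Feature Extraction had already removed background and dye bias, used as an alternative. The authors' deposited table gives a log2 ratio and an adjusted p-value per spot, with settings not given in the sources used here. Across tested features its log2 ratios had a Pearson r of 0.995 with those computed here.

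The ratios come from limma 3.58.1 in R 4.3.3: normexp background correction (offset 50), loess within arrays with control spots at weight 0, outlier spots left out, and swapped arrays turned. No spot was saturated. Of 41174 probes 19404 were kept, those well above background in all 4 AngII or all 4 media channels. In a given channel 19045 to 21936 were well above background, and precision is limited by there being 4 arrays. The brightest probe stood for a gene. The arrays of each replicate were averaged, since both pair the AngII and media RNA of 1 number, and limma's lmFit and eBayes tested both averages against 0, with Benjamini-Hochberg adjustment over all features at 0.05. Channel levels were scaled between arrays by Aquantile, and overlap was judged on them. The array annotation is of build mm9, and accessions matched without versions to RefSeq on GRCm38.p6 named 25097 probes. On simulated data with the measured noise of this comparison over 15006 features, 50 of 50 genes changed by 0.5 on the log2 scale were recovered. The simulation held array noise and dye shifts, which cancel in the averages, and no spread between cultures. It left 14806 features unchanged, so it checks that the fit runs and not how sure the calls made here are. The named genes are the 8 members and up to 3 genes per role with the smallest p, and 1 gene is not reported here. The members and lists were chosen with earlier results of these data known. Alternatives are given in the closing section.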

Additional observations from a re-analysis of the deposited data

Results flagged for a closer look

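At 3 of the 8 tested probes the log2 ratio of AngII over media differed between the arrays with AngII in Cy5 and those with AngII in Cy3, by a dye term in limma adjusted over 19384 probes. For Hgfac the difference (Cy5 minus Cy3) was -0.69 (adjusted p = 0.000107), from means of -0.01 and 0.68. For the brighter St14 probe it was -0.43 (adjusted p = 0.000258), with every array of 1 orientation below 0 and every array of the other above 0, a pattern that 21.7% of all tested features had. For the dimmer St14 probe it was -0.35 (adjusted p = 0.00246). Such a difference passed for 55.4% of the 19384 probes. For the probes of Spint1 it was 0.024 and 0.021 (adjusted p = 0.751 and 0.784), and for those of Met and for Gab1 it did not pass either.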

How the results depend on the processing

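Spint1 was lower and passed under all 13 alternatives run, between -0.73 and -0.50 on the log2 scale, with adjusted p from 4.16e-23 to 0.0251. Hgfac kept its direction and call in 9 of 13, lost the call in 3 and turned to -0.014 with AngII in Cy5 alone, with adjusted p from 1.21e-11 to 0.839. St14 kept both in 8 of 13, lost the call in 3, and turned to -0.043 when its probes were averaged and to -0.065 for AngII in Cy5 alone, with adjusted p from 9.33e-05 to 0.634. Met stayed above 0 in all 13 and passed in 2, for AngII in Cy3 alone and under median centring. Gab1 passed in none, turned to 0.0020 with AngII in Cy5 alone and ran from -0.090 to 0.0025 when 1 replicate was left out. The count of genes of the axis that were lower was 1 throughout. The count that were higher, 2 here, was 3 under median centring, with no filter on dim probes and for AngII in Cy3 alone. It was 1 when probes were averaged, and 0 in limma with the replicate block and with AngII in Cy5 alone (0 in both at an unadjusted p under 0.05). It was 0 to 0 without 1 replicate (1 and 0 at an unadjusted p under 0.05). With the replicate block 4641 features and 30 of the pathway genes passed, and without 1 replicate 2219 to 2938 features and 23 to 23 pathway genes. In those fits the residual holds the difference between dye orientations, since each replicate number pairs an array with its swap. The alternatives were no background correction, processed signals, median centring, a looser and a stricter filter, averaged probes, a dye term, the replicate block, 1 dye orientation or 1 replicate at a time, and the authors' deposited table. Dim signal limits what can be said of Hgf, Mst1r and Hgfac.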
